A study of Mus musculus with 12 samples.

Results

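The heat shock chaperone genes followed here numbered 10 of the 55450 genes in the count table: the inducible Hsp70 pair Hspa1a and Hspa1b, the constitutive Hsp70 Hspa8, the Hsp110 protein Hsph1, the Hsp40 co-chaperone Dnajb1, the cytosolic Hsp90 genes Hsp90aa1 and Hsp90ab1, the mitochondrial chaperonin genes Hspd1 and Hspe1, and the heat shock transcription factor Hsf1. They were chosen by symbol, with earlier results of these libraries known, so their own differences between genotypes are a description. No p-value is printed for them, and counts of those called are not a test of the set. RNA was sequenced from donor-derived mouse bone marrow cells that lacked lineage markers and carried the receptor Kit, a fraction of stem and progenitor cells. The cells were sorted from recipients of competitive transplants, in which test marrow shares a host with competitor marrow. Each of 4 genotype labels had 3 libraries: WT, Tet2 KO (written Tet2KO), Id1 KO (Id1KO), and Tet2 KO + Id1KO (dKO). Tet2 encodes an enzyme that oxidises methylated cytosine, and Id1 encodes an inhibitor of helix-loop-helix transcription factors. The labels give neither the alleles, the strain and age of the animals, nor the number of mice behind a library, and the 3 libraries of a genotype carry 1 sample number in their titles. They may be repeat libraries of 1 cell sample, so every p-value below compares libraries.

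Hsp70 proteins bind unfolded stretches of other proteins in a cycle driven by ATP. J-domain proteins such as Dnajb1 deliver clients and stimulate ATP hydrolysis, and exchange factors such as Hsph1 release the nucleotide. Hsp90 acts later, on clients such as kinases and hormone receptors, while Hspd1 and Hspe1 form the folding chamber of mitochondria. Under proteotoxic stress Hsf1 forms trimers that bind alternating GAA and TTC units in the promoters of heat shock genes. Hspa1a and Hspa1b respond strongly to heat, whereas Hspa8 and Hsp90ab1 are made in unstressed cells.

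The promoters of the Hsp70 pair are shown because both genes moved together in the results that follow. These are the 250 bases before each start site, from RefSeq (GRCm38.p6), both on the minus strand, at chr17:34972157-34972406 for Hspa1a and chr17:34959239-34959488 for Hspa1b. Capitals mark a GAANNTTC match, a GAA and a TTC unit facing each other across 2 bases, at 104 to 97 bases before the start site.
Hspa1a: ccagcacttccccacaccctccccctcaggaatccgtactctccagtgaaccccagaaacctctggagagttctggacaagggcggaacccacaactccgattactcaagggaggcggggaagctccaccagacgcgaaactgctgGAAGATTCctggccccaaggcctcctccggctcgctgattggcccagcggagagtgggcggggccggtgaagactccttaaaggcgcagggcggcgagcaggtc
Hspa1b: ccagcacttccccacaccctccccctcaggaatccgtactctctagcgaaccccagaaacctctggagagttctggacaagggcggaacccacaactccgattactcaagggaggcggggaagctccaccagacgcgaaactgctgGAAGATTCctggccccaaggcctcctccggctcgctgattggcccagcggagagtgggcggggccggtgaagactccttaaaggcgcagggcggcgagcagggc
The windows were identical at 247 of 250 bases, with 3 differences, C44T, T47C and T249G, counted from 1 at the 5′ end with the Hspa1a base first. Both held 1 CCAAT match, read on the opposite strand, and 3 GGGCGG matches at the same places. CCAAT was found in 33.8% and GGGCGG in 32.7% of 32851 RefSeq promoter windows of this length, on either strand.

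For 2 more members a 30-base stretch around the facing units is shown, since these genes moved differently from the Hsp70 pair. Hsph1 (chr5:149636351-149636380, minus strand) had a TTCNNGAA match, and Hspe1 (chr1:55088052-55088081, plus strand) had a longer run of alternating units, each in capitals.
Hsph1: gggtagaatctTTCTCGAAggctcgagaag
Hspe1: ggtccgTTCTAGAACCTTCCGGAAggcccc
Hspd1 is transcribed away from Hspe1 and has 2 entries. The window of the one with the downstream start site held the same run, and that of the other held no 2-unit match. The matches shown for Hsph1 and Hspe1 and the run in the Hspd1 window all lie in bases annotated as UTR. Either 2-unit motif, GAANNTTC or TTCNNGAA, which read alike on both strands, was present in 12.8% of the 32851 windows. A run of 3 alternating units, which contains 2-unit matches, was present in 0.466%. No 2-unit match was in the window of Dnajb1. A match describes these letters only. Hspa8, Hsp90aa1, Hsp90ab1 and Hsf1 had no entry in the table used.

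Library totals were 15706407 to 19959183 estimated counts, and all 10 members passed the filter on low counts, which kept 14346 genes. Levels are CPM (counts scaled to a common library size), and called means an adjusted p under 0.05 in edgeR's quasi-likelihood fit of all 12 libraries. The targeted genes were not reduced under their own knockout labels. Tet2 averaged 130 CPM for Tet2KO and 118 in dKO against 99.3 for WT. Id1 averaged 3.96 for Id1KO, 3.93 in dKO and 3.86 in Tet2KO against 1.47 for WT. Its higher level was thus not particular to the Id1 labels. A gene count does not show which exons were read and so does not check a partial deletion. Xist, made from the inactive X chromosome of female cells, averaged 262 CPM for WT, 10.8 for Tet2KO, 64.9 for Id1KO and 16.7 for dKO. The share of small structural RNA was 8.62% to 8.88% for WT and 5.74% to 6.66% elsewhere. Genotypes are therefore named below as the labels give them. The labels do not give the sex of the animals. Because Xist differed between the labels, sex and genotype cannot be told apart in the comparisons below. Progenitor markers such as Mpo, Myb and Kit summed to 13230 to 13475 CPM in the Tet2KO libraries and 11985 to 12052 in WT. In Id1KO and dKO together they summed to 10035 to 10817. Mpo made up most of this sum, averaging 11141 CPM for Tet2KO, 9912 for WT, 8428 for Id1KO and 8505 for dKO. Of the 9 markers 7 were called higher and 2 lower in Tet2KO against WT (100%, beside 32.8% of all genes). Myb was among the lower, averaging 817 CPM for Tet2KO and 879 for WT. The 5 mature T cell markers summed to 0.275 to 0.808 CPM.

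Hspa1a and Hspa1b were highest in the libraries labelled Tet2KO, intermediate in Id1KO and low in WT and dKO. Both are genes of 1 exon on the minus strand of chromosome 17 in GRCm38, Hspa1a at chr17:34969190-34972156 and Hspa1b at chr17:34956436-34959238. Hspa1a was at 12.2, 12.9 and 12.3 CPM in the 3 WT libraries, 45.3, 44.2 and 41.9 for Tet2KO, 19.4, 18.3 and 18.8 for Id1KO, and 9.4, 8.84 and 8.03 for dKO. The 4 groups did not overlap, and dKO lay below WT. Hspa1b was at 17.3, 17 and 18.6 CPM for WT, 57.9, 57.2 and 55.3 for Tet2KO, 29.2, 31.3 and 27.4 for Id1KO, and 14.7, 13.9 and 17.7 for dKO. Here 1 dKO library lay within the WT range, and the other groups stood apart.

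The exons of the pair were 99.2% identical over 2201 bp, so the split of reads between them is an estimate and their sum is the safer measure. The share assigned to Hspa1a ranged from 31.2% to 43.9% over the 12 libraries, lowest in 1 dKO library. Summed, the pair was at 29.5, 29.9 and 30.9 CPM for WT (30.1 ± 0.735, SD, n = 3) and at 103, 101 and 97.2 for Tet2KO (101 ± 3.09, SD, n = 3). It was at 48.7, 49.6 and 46.2 CPM for Id1KO (48.2 ± 1.79, SD, n = 3) and at 24.1, 22.7 and 25.8 for dKO (24.2 ± 1.5, SD, n = 3). The order was Tet2KO, Id1KO, WT, dKO, with no overlap between neighbours in it. The fitted log2 fold change of the sum against WT was 1.74 ± 0.045 (SE) in Tet2KO, a 3.34-fold higher level, 0.68 ± 0.049 for Id1KO and -0.31 ± 0.055 for dKO. From Tet2KO to dKO the sum fell by 2.05 on the log2 scale (SE 0.048), a level 4.15-fold lower, and from Id1KO to dKO by 0.99 (SE 0.052). The interaction, the effect of the Id1 label among libraries labelled Tet2 KO minus that among the others, was -2.73 ± 0.069 on the log2 scale. Both single labels thus had higher levels than WT, and dKO a lower one.

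**Figure D1:**
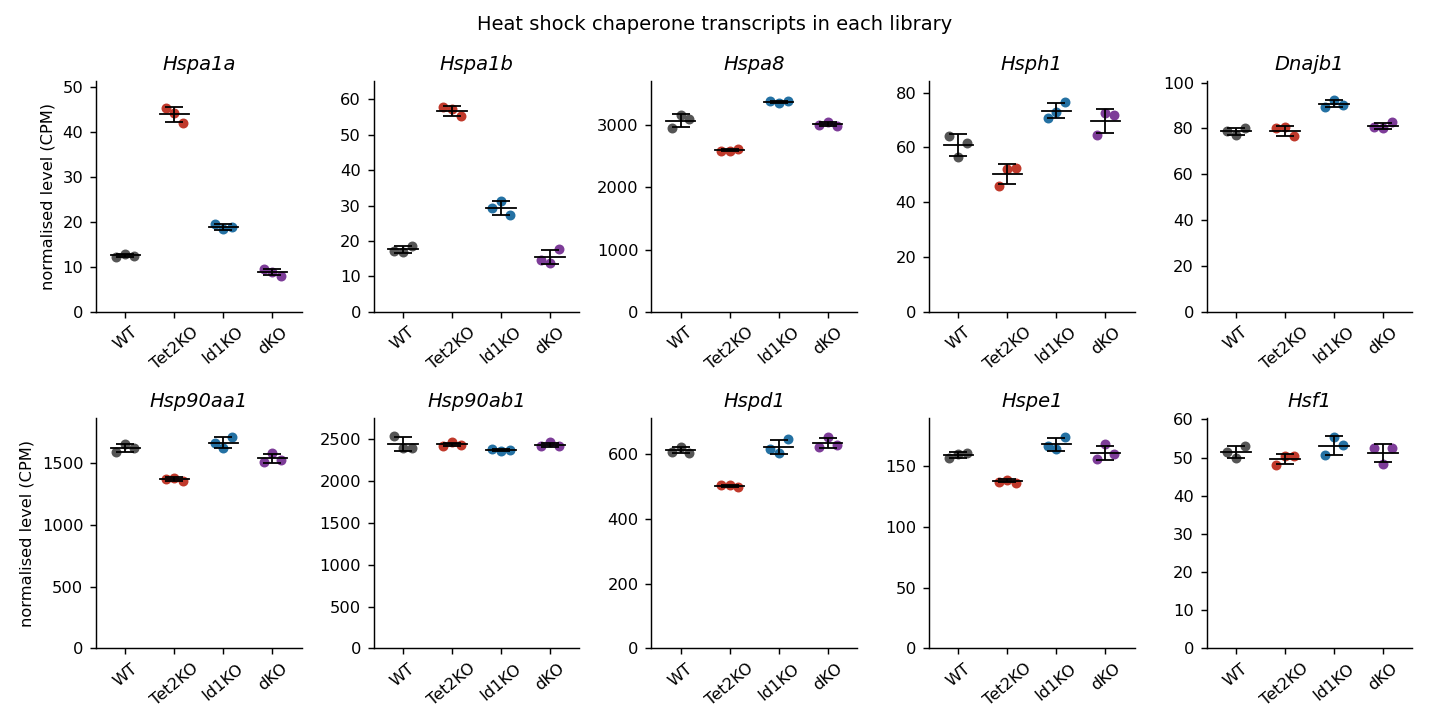
Normalised level (CPM, linear axes from 0) of each of the 10 genes in the 12 libraries, by genotype label. Points are libraries, horizontal lines are means and bars are SD (n = 3). Hspa1a and Hspa1b peak in Tet2KO, at means of 43.8 and 56.8 CPM, while Hspa8, Hsph1, Hsp90aa1, Hspd1 and Hspe1 are lowest there.

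Hspa8, the constitutive Hsp70, was lowest where the pair was highest. The gene lies at chr9:40800984-40810087 on the plus strand. Its level was 2956, 3163 and 3100 CPM for WT, 2586, 2589 and 2619 for Tet2KO, 3388, 3363 and 3393 for Id1KO, and 3010, 3051 and 2996 for dKO. Tet2KO was below and Id1KO above all other libraries, while WT and dKO overlapped. On the log2 scale Tet2KO differed from WT by -0.24 ± 0.026 (SE). The same measure was 0.14 ± 0.026 in Id1KO against WT and 0.22 ± 0.026 in dKO against Tet2KO. The inducible pair made up 0.935% to 0.988% of the summed CPM of Hspa1a, Hspa1b and Hspa8 for WT, 3.58% to 3.84% for Tet2KO, 1.34% to 1.45% for Id1KO and 0.74% to 0.852% for dKO. Even in Tet2KO, inducible Hsp70 was a small fraction of this Hsp70 message. In all, 3 processed pseudogenes similar to Hspa8 held 0.714% to 0.916% of its summed CPM.

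Of the 2 co-chaperones of Hsp70, Hsph1 was lowest in Tet2KO and highest on average in Id1KO, as Hspa8 was. Dnajb1 was also highest in Id1KO but was not lower in Tet2KO. Hsph1, the Hsp110 exchange factor and itself heat-inducible (chr5:149614287-149636376, minus strand), was at 64.3, 56.4 and 61.7 CPM for WT, 46, 52.2 and 52.5 for Tet2KO, 70.9, 73.1 and 76.5 for Id1KO, and 64.7, 72.6 and 71.9 for dKO. Tet2KO libraries lay below all others, and Id1KO overlapped dKO. On the log2 scale the difference was -0.27 ± 0.058 in Tet2KO against WT, 0.27 ± 0.054 in Id1KO against WT, 0.20 ± 0.055 in dKO against WT and 0.47 ± 0.058 in dKO against Tet2KO. Dnajb1, a heat-inducible J-domain partner of Hsp70 (chr8:83608193-83612653, plus strand), was at 78.7, 77.1 and 80.3 CPM for WT, 80, 80.4 and 76.5 for Tet2KO, 89.2, 92.4 and 90.4 for Id1KO, and 80.6, 80 and 82.7 for dKO. Only the Id1KO libraries stood apart, with a log2 fold change of 0.20 ± 0.032 against WT. In Tet2KO against WT its log2 fold change was 0.00 ± 0.033, beside 1.74 for the Hsp70 pair.

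The Hsp90 genes parted by type. Hsp90aa1, the inducible form (chr12:110690605-110702728, minus strand), was at 1590, 1658 and 1620 CPM for WT, 1373, 1384 and 1355 for Tet2KO, 1663, 1625 and 1712 for Id1KO, and 1510, 1582 and 1527 for dKO. Tet2KO was lowest without overlap, at -0.24 ± 0.027 (log2, against WT), and dKO lay between Tet2KO and WT. Hsp90ab1, the constitutive form (chr17:45567775-45573271, minus strand), was at 2540, 2394 and 2392 CPM for WT, 2415, 2459 and 2432 for Tet2KO, 2377, 2352 and 2366 for Id1KO, and 2412, 2459 and 2419 for dKO. Its group means lay within 1.03-fold of each other, with log2 fold changes from -0.05 to 0.04 over the 6 contrasts. The ratio of Hsp90aa1 to Hsp90ab1 in CPM per kb of exon was 0.508 ± 0.0266 for WT, 0.429 ± 0.00437 for Tet2KO, 0.538 ± 0.013 for Id1KO and 0.483 ± 0.00665 for dKO (SD, n = 3). Pseudogene copies held 0.392% to 0.615% of the summed Hsp90aa1 level.

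Hspd1 (Hsp60, chr1:55077835-55088243, minus strand) and Hspe1 (Hsp10, chr1:55088132-55091307, plus strand) are transcribed from a shared region in opposite directions and moved side by side. Hspd1 was at 608, 623 and 604 CPM for WT, 504, 504 and 499 for Tet2KO, 617, 602 and 646 for Id1KO, and 623, 652 and 629 for dKO. Hspe1 was at 157, 160 and 161 CPM for WT, 137, 139 and 136 for Tet2KO, 167, 164 and 174 for Id1KO, and 156, 168 and 160 for dKO. For both genes Tet2KO lay below every other library, and the other labels were close together. Against WT the log2 fold change in Tet2KO was -0.28 ± 0.029 for Hspd1 and -0.21 ± 0.031 for Hspe1, and from Tet2KO to dKO it was 0.34 ± 0.029 and 0.23 ± 0.031. Hspd1 exceeded Hspe1 2.14-fold in WT, 2.04-fold in Tet2KO, 2.06-fold in Id1KO and 2.2-fold in dKO per kb of exon. Their exons overlap by 112 bp on opposite strands, and the strand setting of the counting is not given in the sources used here, so that stretch cannot be assigned with certainty.

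Hsf1, the transcription factor of the heat shock response (chr15:76477422-76501913, plus strand), was at 51.4, 50 and 53.1 CPM for WT, 48.1, 50.5 and 50.3 for Tet2KO, 50.6, 55.5 and 53.2 for Id1KO, and 52.6, 48.4 and 52.4 for dKO. Neighbouring groups in the order of means overlapped throughout, and the highest mean was 1.07-fold the lowest. Transcript level says nothing of the trimeric, DNA-binding state of the protein.

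Per kb of exon, WT levels ran from 814 CPM per kb for Hsp90ab1 and 715 for Hspa8, through 413 for Hsp90aa1, 232 for Hspd1 and 108 for Hspe1, to 24.6 for Dnajb1, 8.37 for Hsph1 and 7.25 for Hsf1. The inducible pair stood lowest, at 6.29 CPM per kb for Hspa1b and 4.2 for Hspa1a. In Tet2KO the same genes were at 20.3 and 14.8 CPM per kb, above Hsph1 at 6.91 and Hsf1 at 6.99. The divisor is the merged length of all annotated exons, 7099 bp for Hsf1 and 2967 bp for Hspa1a, so the order of genes depends on it. In CPM alone, Tet2KO means were 56.8 for Hspa1b, 50.2 for Hsph1, 49.6 for Hsf1 and 43.8 for Hspa1a. Summed over the 10 genes, the level was 8130 ± 72.3 CPM for WT, 7323 ± 33.6 for Tet2KO, 8469 ± 90.1 for Id1KO and 8011 ± 109 for dKO (SD, n = 3). Total chaperone message of these genes was therefore lowest where the inducible pair was highest. Cell composition bears on all these levels: in sorted bulk cells, fewer cells of a type and less RNA per cell cannot be told apart.

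**Figure D2:**
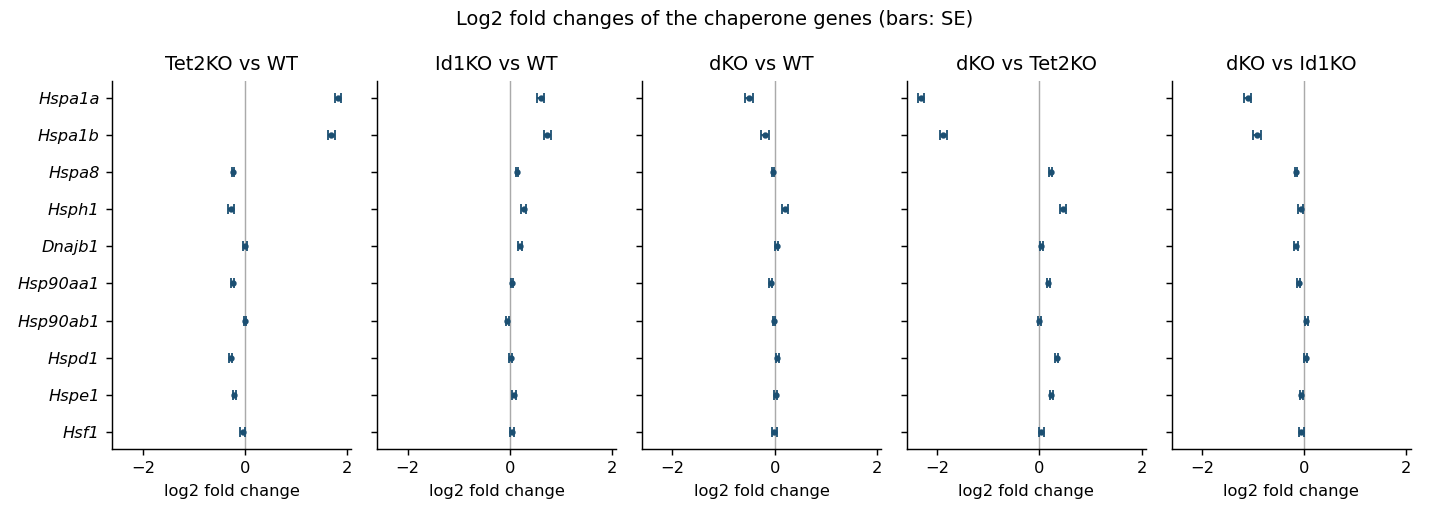
Log2 fold change of each gene in 5 comparisons of genotype labels, with SE as bars, many narrower than the points. Hspa1a and Hspa1b reach 1.81 and 1.69 in Tet2KO against WT and -2.32 and -1.88 in dKO against Tet2KO, and the other 8 genes stay between -0.28 and 0.47.

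In Tet2KO against WT, 2 of the 10 genes were called higher (Hspa1a and Hspa1b) and 5 lower (Hspa8, Hsph1, Hsp90aa1, Hspd1 and Hspe1), where 32.8% of all tested genes were called, 16.6% higher and 16.2% lower. In Id1KO against WT 5 were called higher (Hspa1a, Hspa1b, Hspa8, Hsph1 and Dnajb1) and no member lower, where 15% of genes were called, 7.26% higher and 7.77% lower. In dKO against WT, Hsph1 was called higher and Hspa1a lower, with 19.2% of genes called, 10.2% higher and 8.97% lower. From Tet2KO to dKO 5 were higher and 2 lower, with 26.4% called, 13.1% higher and 13.4% lower. From Id1KO to dKO 5 were lower (Hspa1a, Hspa1b, Hspa8, Dnajb1 and Hsp90aa1), with 19.3% called, 10.6% higher and 8.7% lower. The interaction was called for 6 of the 10, 3 with a positive sign (Hsp90aa1, Hspd1 and Hspe1) and 3 with a negative one (Hspa1a, Hspa1b and Dnajb1), with 14.5% called, 7.46% positive and 7.03% negative. These counts describe chosen genes and are not a test of them, and several comparisons share libraries.

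The wider chaperone network was examined through 118 further genes in 9 lists, of which 103 were tested. In Tet2KO against WT 45 of the 103 were lower and 4 higher (47.6%, beside 32.8% of all genes), and their median log2 fold change was -0.09 beside 0.00 for all genes. The lower genes included 10 of 14 TRiC and prefoldin subunits, which fold actin and tubulin. Also lower were 10 of 11 mitochondrial proteostasis genes and 7 of 9 other Hsp70 family genes. Shares were smaller for the Hsp90 family and co-chaperones, with 6 of 20 lower, and exchange factors, with 6 of 13 lower and 1 higher. Of 29 J-domain proteins 10 were lower and 2 higher, and of 5 heat shock factors and regulators 1 was lower and 1 higher. Of 3 small heat shock proteins 0 were called. A gene can be in more than 1 list. Bag2, an exchange factor for Hsp70, fell from 30.6, 31.2 and 30.9 CPM for WT to 26.6, 20 and 21.5 for Tet2KO (log2 -0.45 ± 0.077, edgeR adjusted p = 0.000147). Hspa9, the mitochondrial Hsp70 that works with Hspd1, was at 519, 544 and 534 CPM for WT and 482, 474 and 483 for Tet2KO (log2 -0.15 ± 0.028, edgeR adjusted p = 0.000324). The chaperonin subunit Cct7 was at 368, 380 and 372 CPM for WT and 329, 333 and 330 for Tet2KO (log2 -0.17 ± 0.024). It shares 214 exonic bases with Pradc1 on the opposite strand. Cct7 was named because its levels ran opposite to those of the Hsp70 pair in these libraries, so its difference is given without a test. Among the 4 that rose was Hsf2, a relative of Hsf1, by 0.24 ± 0.08 (edgeR adjusted p = 0.0268), with libraries that overlapped those of WT and exons that hold short stretches similar to other genes. The Hsf2 call ended with DESeq2 (adjusted p = 0.0608), without WT replicate 1 (edgeR adjusted p = 0.108), and without Tet2KO replicate 1 (0.0604) or Tet2KO replicate 3 (0.172).

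From Tet2KO to dKO 39 of the 103 genes were higher and 2 lower (39.8%, beside 26.4% of all genes), with a median of 0.07, and this comparison shares the Tet2KO libraries with the one above. Dnaja3, a mitochondrial J-domain protein that overlaps Coro7 on the opposite strand, rose by 0.26 ± 0.036 on the log2 scale (edgeR adjusted p = 2.17e-05). In Id1KO against WT 11 were higher and 4 lower, 14.6% beside 15% of all genes. The higher genes included Dnajb9, a J-domain protein of the endoplasmic reticulum, by 0.46 ± 0.056 (edgeR adjusted p = 1.16e-05), and Chordc1, an Hsp90 co-chaperone with short stretches similar to other genes, by 0.23 ± 0.03 (edgeR adjusted p = 2.96e-05). Dnaja1, another J-domain partner of Hsp70, rose by 0.22 ± 0.032 (edgeR adjusted p = 8.9e-05) and shares 608 exonic bases with Smu1 on the opposite strand. From Id1KO to dKO 1 was higher and 14 lower (14.6%, beside 19.3% of all genes), 24 in all without dKO replicate 2. Hspa2, a further Hsp70, fell by 0.53 (SE 0.095, edgeR adjusted p = 0.000418). In dKO against WT 2 were higher and 8 lower (9.71%, beside 19.2% of all genes), 6 in all without WT replicate 3 or without dKO replicate 3. The interaction was called for 24, 18 of them positive (23.3%, beside 14.5% of all genes), and for 14 to 15 without Tet2KO replicate 2, Tet2KO replicate 3 or Id1KO replicate 1.

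**Figure D3:**
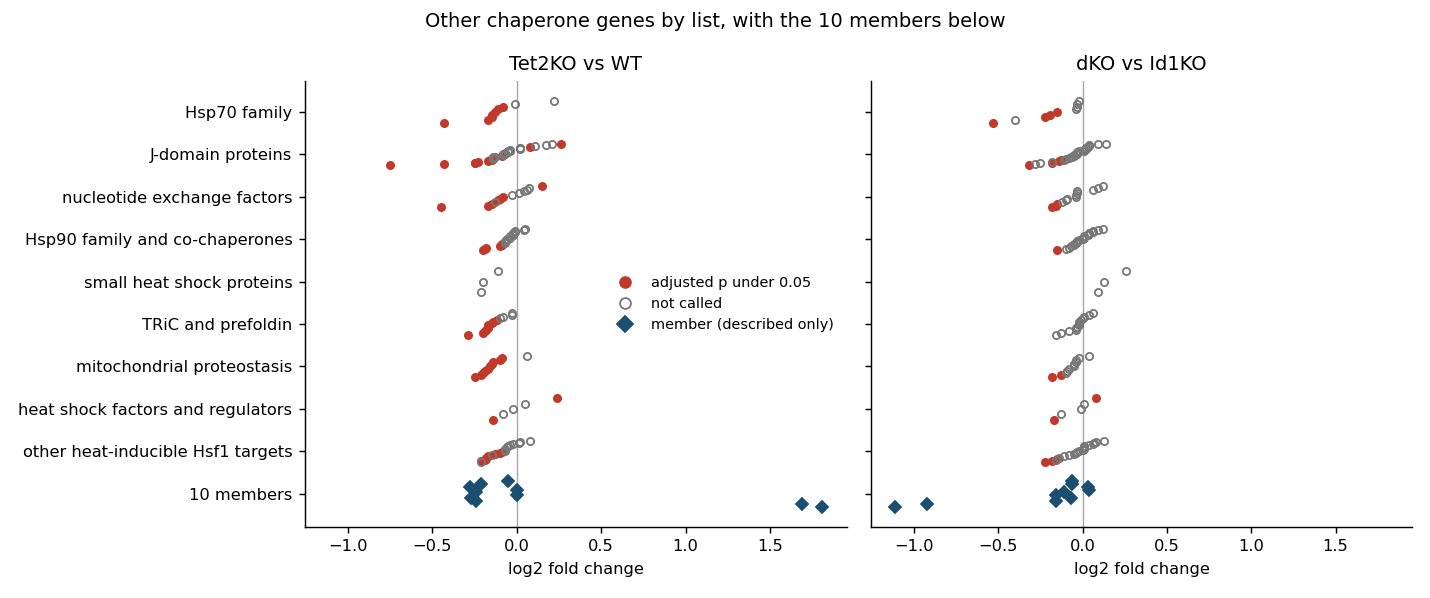
Log2 fold changes of 103 other tested chaperone genes by list (a gene in more than 1 list is drawn in each), with filled points for an adjusted p under 0.05, and of the 10 members as diamonds. In Tet2KO against WT the other genes run from -0.75 to 0.26 and the Hsp70 pair stands to their right; in dKO against Id1KO, which shares no library with the first comparison, they run from -0.53 to 0.26 and the pair stands to their left.

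Other genes known for induction by Hsf1 were counted as a list. Of 20 tested heat-inducible targets outside the 10 members, 0 were higher and 8 lower in Tet2KO against WT by edgeR and by DESeq2, where edgeR called 16.6% of all genes higher and 16.2% lower. DESeq2 called 1860 of all genes higher and 1744 lower. At an unadjusted p under 0.05 by edgeR 0 of the list were higher and 11 lower, with 4 further genes of the list below the filter. The share of all genes at that unadjusted threshold was not counted, so no excess can be read from it. In Id1KO against WT, where the pair was also higher, 3 of the 20 were higher and 2 lower (25%, beside 15% of all genes). The 3 were Chordc1, Dnaja1 and Jmjd6, the last by 0.19 ± 0.042 (edgeR adjusted p = 0.00319). From Tet2KO to dKO, where the pair was lower, 11 of the 20 were higher and 1 lower (60%, beside 26.4% of all genes). From Id1KO to dKO, where the pair was also lower, 3 of the 20 were lower (15%, beside 19.3% of all genes). Among these, Dnaja1 fell by 0.18 (SE 0.033, edgeR adjusted p = 0.000407) and Jmjd6 by 0.22 (SE 0.043, edgeR adjusted p = 0.00083). Jmjd6, a hydroxylase gene, shares exonic bases with Mettl23 on the opposite strand. Bag3, an exchange factor induced with Hspa1a in stressed cells, was at 12.2, 10.2 and 9.62 CPM for WT, 11.5, 11.5 and 9.42 for Tet2KO, 9.77, 11.4 and 11.2 for Id1KO, and 10.6, 9.52 and 11.3 for dKO, so all groups overlapped. Hspb1, the small heat shock protein Hsp27, had at most 1 count in any library, Hspb8 at most 2 and Hspa1l, which neighbours the pair, at most 1. No level can be compared for these 3 genes at this depth.

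Within 100 kb of the pair on chromosome 17, a window chosen after values were seen, 13 other genes were tested. Their log2 fold changes ran from -0.59 to 0.11 in Tet2KO against WT, with 1 called higher and 2 lower (23.1%, beside 32.8% of all genes). Neu1, which encodes a lysosomal sialidase, was called in 5 of the 6 contrasts, at -0.15 in Tet2KO against WT, -0.32 in dKO against WT and -0.38 in dKO against Id1KO. From Tet2KO to dKO the neighbours ran from -0.18 to 0.20.

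**Figure D4:**
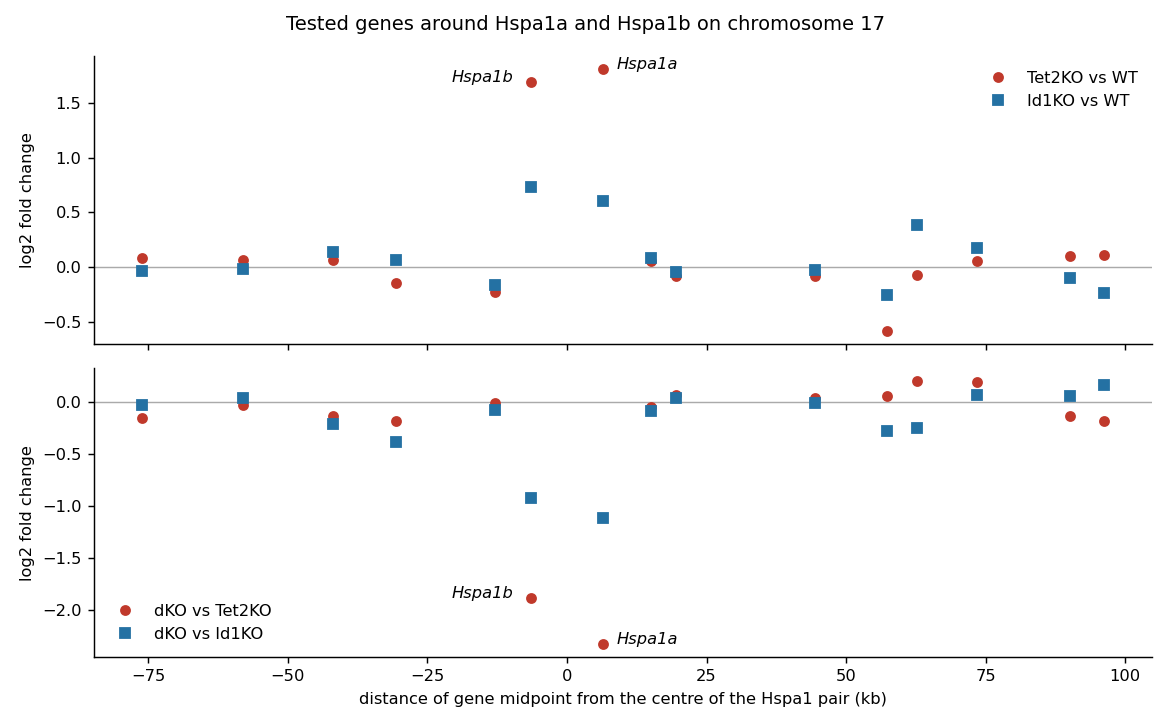
Log2 fold changes of Hspa1a, Hspa1b and 13 tested neighbours against the distance of each gene's midpoint from the centre of the pair, in kb, for 4 comparisons. The pair stands apart from its neighbours, which lie between -0.59 and 0.38.

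Across the 12 libraries, which fall into 4 genotype groups, log2 levels of the other members were described by their Pearson correlation with the Hsp70 pair: -0.89 for Hspd1, -0.74 for Hspe1, -0.65 for Hsph1 and Hsp90aa1, -0.58 for Hspa8, -0.25 for Hsf1, -0.08 for Hsp90ab1 and 0.01 for Dnajb1. Of 9818 genes ranked the same way, those most like the pair were Pla2g15 (0.949), a lysosomal phospholipase, Zfp629 (0.947), Stat3 (0.946), a transcription factor downstream of cytokines, Acvr1b (0.943), an activin receptor, and BC064078 (0.941). Their changes were smaller than that of the pair: Stat3 averaged 122 CPM for WT, 139 for Tet2KO, 130 for Id1KO and 123 for dKO. The most opposite were Myh10 (-0.981), a non-muscle myosin, Atic (-0.958), an enzyme of purine synthesis, Ran (-0.955), the nuclear transport GTPase, Cct7 (-0.95) and Ank1 (-0.949), the ankyrin of the red cell membrane. Myh10 averaged 56.1, 29.4, 46.3 and 58.7 CPM for WT, Tet2KO, Id1KO and dKO.

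Markers of other states moved with the same labels. The 14 erythroid markers summed to 1590 to 1638 CPM for WT, 956 to 967 for Tet2KO, 1774 to 1810 for Id1KO and 1598 to 1613 for dKO, with none at 0, and 13 of them were lower in Tet2KO against WT. For Hspa8 too, Id1KO was highest and Tet2KO lowest, and WT and dKO overlapped. By gene, 6 of the 14 markers were higher and 1 lower in dKO against WT (50%, beside 19.2% of all genes). The part of erythroid cells in the lower chaperone levels of Tet2KO was not tested. Immediate early genes, which can rise during cell handling, summed to 1901 to 1982 CPM for WT, 1726 to 1765 for Tet2KO, 1605 to 1668 for Id1KO and 1453 to 1559 for dKO. Their sum was highest in WT and lowest in dKO, and the part of such genes in the Hsp70 levels was not tested. Of 20 tested, 5 were higher and 7 lower in Tet2KO against WT (60%, beside 32.8% of all genes). The 6 mature neutrophil markers summed to 60.7 to 66.2 CPM for WT, 85.4 to 89.7 for Tet2KO, 63.2 to 67.7 for Id1KO and 80 to 90.7 for dKO, and their part was not tested. The 4 mature B cell markers summed to 26.9 to 29.2 CPM in the Tet2KO libraries and to 19.8 to 25 in the others. Cd79b, of the B cell receptor, was higher in Tet2KO against WT by 0.23 ± 0.062 (edgeR adjusted p = 0.0063), and the part of B cells was not tested either.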

How the data were processed

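Estimated counts per gene in the deposited table were made by the authors and not normalized. STAR, RSEM and build mm10 are named in the submitters' processing notes, and libraries were stranded total RNA depleted of ribosomal RNA, per the labels' protocols. Tool versions, annotation and strand setting are not given in the sources used here. All 55450 identifiers matched GENCODE M21 (GRCm38), which gave positions and merged exonic lengths.

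The members and lists were chosen with earlier results of these data known. Estimated counts were rounded (4.92% to 5.26% of genes were not whole), filtered by filterByExpr with a minimum count of 10, scaled by TMM and fitted with edgeR's quasi-likelihood model for 12 libraries and 6 contrasts. F-tests were two-sided, with Benjamini-Hochberg adjustment over 14346 genes and a threshold of 0.05. Hspa1a and Hspa1b were summed as 1 row for the pair. Totals of 15706407 to 19959183 counts set the counting precision.

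Genes named were the 10 members and their pair sum, Tet2, Id1, Xist, the 3 highest and 3 lowest called chaperone genes per contrast (among those averaging 5 CPM or more in either group), the 2 most abundant genes of each other list, Bag3, Hspb1, Dnaja1, Hspa5, Hspa9, Hsf2, Fos, Jun, Egr1, and the 5 genes most like and 5 most opposite to the pair. Not all are printed, and 1 gene is not reported here. Neighbours, Hspb8 and Hspa1l were named after values were seen. Lists were 9 of chaperones, immediate early and endoplasmic reticulum stress genes, and stem and progenitor, T cell, B cell, neutrophil and erythroid markers. Copies were sought with blast at 95% identity over at least 100 bp. Pairs of libraries within a genotype differed by more than sampling noise (chi-square per gene 1.52 to 5.35, against 9.18 to 24 between genotypes) and were kept apart. In simulated Tet2KO against WT data edgeR recovered 93.5% of 200 genes changed 2-fold with 10 false calls among 14185 genes, and 55% changed 1.2-fold with 4 among 14179. The simulated libraries were independent and all genes shared 1 spread. These figures therefore do not measure the error where libraries may be repeats of 1 cell sample. Alternatives were no filter, upper-quartile and RLE scaling, scaling that left out mitochondrial and small RNA genes, DESeq2, a replicate block, counts not rounded, only the libraries compared, each library left out, and either gene of the pair alone. Software was Python 3.11.15 with pandas 2.3.3 and matplotlib 3.10.9, blast 2.17.0, and R 4.3.3 with DESeq2 1.42.0, limma 3.58.1 and edgeR 4.0.16.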

Additional observations from a re-analysis of the deposited data

Results flagged for a closer look

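The effect of the Id1 label differed between libraries labelled Tet2 KO and the others, by the interaction term of the edgeR fit on the log2 scale, for the Hsp70 pair (-2.73), Hspa1a (-2.92), Hspa1b (-2.61), Dnajb1 (-0.17), Hsp90aa1 (0.13), Hspd1 (0.31) and Hspe1 (0.15), which are chosen genes given as a description. The same term was called for Id1 itself (-1.40), which averaged 1.47 CPM for WT and 3.86 to 3.96 for the other labels. Among other chaperone genes it was negative for Dnajb9 (-0.58), Grpel2 (-0.24), Dnajc5 (-0.20), Jmjd6 (-0.20) and Bag4 (-0.20), and positive for Bag2 (0.33), Afg3l2 (0.24), Cct7 (0.21), Dnaja3 (0.20), Dnajc8 (0.17) and Hspa9 (0.13). Jmjd6, Dnaja3 and Cct7 share exonic bases with a gene on the opposite strand. Cct7 was named for levels that ran opposite to those of the pair, so its value is a description. Of 19 alternatives run, the call ended in 11 for Bag2, 11 for Bag4, 8 for Dnajc8, 8 for Hspa9, 6 for Jmjd6, 4 for Grpel2 and 1 for Afg3l2, each with its sign kept.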

How the results depend on the processing

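The 10 members and the pair sum kept the sign of each called log2 fold change under every alternative run. Whether each member also stayed called was not examined. For the pair sum, Hspa1a alone gave 1.81, 0.60 and -0.51 against WT in Tet2KO, Id1KO and dKO, -2.32 and -1.11 in dKO against Tet2KO and Id1KO, and -2.92 for the interaction. Hspa1b alone gave -0.19 in dKO against WT, -1.88 in dKO against Tet2KO and -2.61 for the interaction. With each library left out, other chaperone genes called numbered 6 to 12 in dKO against WT (main 10), 10 to 24 in dKO against Id1KO (main 15) and 14 to 24 for the interaction (main 24). DESeq2 called 6 of them in dKO against WT, and 1342 genes in all for the interaction against 2078 by edgeR. The cause was not tested. Replicate numbers were read from title suffixes of unstated meaning. After genotype means were subtracted, same-numbered libraries of different genotypes correlated at -0.28 to 0.31 and other-numbered ones at -0.32 to 0.45. In all, 6 of 12 libraries correlated best with their own number. With a replicate block, genes called numbered 4523, 1952, 2565, 3592, 2576 and 1871 in the 6 contrasts, and other chaperone genes 46, 15, 9, 38, 16 and 20. Depth limits Hspb1, Hspb8 and Hspa1l, with at most 2 counts in a library. A genotype may rest on 1 cell sample, so differences between cell samples and between genotypes cannot be told apart.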

Other observations

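The endoplasmic reticulum has its own Hsp70, Hspa5, which was at 1034, 1080 and 1070 CPM in WT, 970, 961 and 974 in Tet2KO, 1176, 1187 and 1194 in Id1KO, and 1004, 1035 and 1016 in dKO. Id1KO lay above and Tet2KO below all other libraries. Its log2 fold change was -0.13 ± 0.025 in Tet2KO against WT (edgeR adjusted p = 0.000364), 0.16 ± 0.025 in Id1KO against WT (edgeR adjusted p = 0.000172) and -0.22 ± 0.025 in dKO against Id1KO (edgeR adjusted p = 2.24e-06). Of 20 endoplasmic reticulum stress genes, 2 were higher and 7 lower in Tet2KO against WT (45%, beside 32.8% of all genes), and 4 higher and 2 lower in Id1KO against WT (30%, beside 15%).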
